A study of Homo sapiens with 17 samples.

Results

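The effect of 4-thiouridine (s4U) itself on transcript levels was read from the 8 TimeLapse sequencing (TL-seq) libraries of a 1 h experiment in HEK-293T, a line of human embryonic kidney cells, out of 17 libraries in the series. The libraries were chosen by their labels: 6 came from cells given 500 µM s4U for 1 h and 2 from cells given none. The s4U libraries comprised 3 replicates of untreated cells and 3 replicates of cells given 1.8 µM emetine, an alkaloid that blocks ribosome translocation, for the same hour. The libraries without s4U comprised 1 of untreated cells and 1 of cells given 1.8 µM emetine. All cells were labeled as wild type. The protocol gives nucleoside recoding chemistry and a stranded kit for poly(A) RNA for every library of this experiment, so that s4U is the only labeled difference within each emetine state. Because each state had a single library without s4U, anything else particular to that library cannot be told apart from the absence of s4U. The labels do not say whether replicates were separate cultures, so p-values measure the spread between these libraries, which may be technical.

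s4U is a uridine analog that cells take up, phosphorylate and build into RNA made while it is present. Recoding chemistry then turns s4U into a base that is read as C, so that reads from new RNA carry T-to-C changes and reads from older RNA do not. Short-lived transcripts are replaced quickly and therefore become the most strongly labeled. Reads with many changes can be harder to align to the genome, and a library without s4U gives the level of each transcript with no such changes.

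Depth ran from 27416189 to 48852046 reads per library, and 81.1% to 82.3% of reads fell in a single gene. Markers of this line (PAX2, LIN28B, NEFM, NEFL, EYA1, VIM and CDH2) were all tested, and they summed to 919 to 1137 CPM with s4U, gene reads scaled to a common library size, and 1057 to 1069 CPM without. Of 8 markers of other cell types, 1 (COL1A1) had enough reads to be tested. Emetine s4U replicate 3 stood apart: the SD over genes of its log2 deviation from its emetine state was 0.31, against 0.09 to 0.19 in the other 7 libraries, and across 10621 genes that deviation had a Spearman correlation of 0.76 with transcript length. Results are therefore given with all 8 libraries and again without that library. The emetine library without s4U had the next largest SD, 0.19.

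Labeling was clear in every s4U library. Converted T positions made up 0.802% to 1.06% of the T positions in reads given to genes with s4U, against 0.0504% (untreated) and 0.0521% (emetine) without s4U. In the spike-in reads, which come from RNA that the cells did not make, they made up 0.0367% to 0.0610% with s4U and 0.0575% and 0.0596% without, so the groups overlapped there. Reads with at least 2 conversions were 6.32% to 8.66% of gene reads with s4U and 0.0422% and 0.0448% without. For each gene, labeling is given below as the percentage points of converted T positions gained over the libraries without s4U, and T content as the mean number of T positions per read in the libraries without s4U. Genes were ordered by both over the 10712 genes that reached 100 reads in all libraries.

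The number of T positions that a read can offer for conversion differs widely between transcripts, as the following coding stretches of 90 bases show. CANX, a chaperone of the endoplasmic reticulum, was among the most T-rich genes, EEF2, the elongation factor that drives ribosome translocation, was among the most T-poor, and JUN and MAT2A were strongly labeled genes of low and high T content. The capitals mark the T positions of the transcript strand (GENCODE 44, GRCh38).
CANX: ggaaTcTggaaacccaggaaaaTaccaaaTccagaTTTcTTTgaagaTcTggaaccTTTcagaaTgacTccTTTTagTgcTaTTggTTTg
EEF2: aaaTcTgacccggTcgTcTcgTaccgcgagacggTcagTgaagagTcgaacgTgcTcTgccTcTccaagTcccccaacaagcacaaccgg
JUN: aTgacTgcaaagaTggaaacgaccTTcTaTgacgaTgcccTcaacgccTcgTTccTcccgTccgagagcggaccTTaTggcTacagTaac
MAT2A: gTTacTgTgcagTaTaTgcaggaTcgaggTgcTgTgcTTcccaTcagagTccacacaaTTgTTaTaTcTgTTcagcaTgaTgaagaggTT
These stretches lie in coding exon 11 of CANX (chr5:179722804-179722893, plus strand), exon 12 of EEF2 (chr19:3978083-3978172, minus), exon 1 of JUN (chr1:58782981-58783070, minus) and exon 6 of MAT2A (chr2:85542155-85542244, plus). They hold 28, 15, 19 and 28 T positions. Over all reads of the gene, T per read was 45.3 for CANX, 24.0 for EEF2, 24.99 for JUN and 40.9 for MAT2A, while labeling was 0.444, 0.531, 8.64 and 2.93 percentage points. T content and labeling are thus different properties of a transcript: over the 10712 genes their Spearman correlation was 0.21.

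With all 8 libraries, no gene passed the test for a change with s4U. Of 14102 genes with more than 100 reads in total, 0 were lower and 0 higher at an adjusted p under 0.05 (0.0% in each direction) by edgeR's quasi-likelihood test with emetine as a covariate. At an unadjusted p under 0.05, 496 genes (3.52%) were lower and 174 (1.23%) higher, and DESeq2 called 18 lower and 7 higher. The median log2 fold change over all genes was -0.01, and the biological coefficient of variation was 13.3%. Without emetine s4U replicate 3 this coefficient dropped to 7.22%, and of 13933 genes 55 were lower (0.395%) and 10 higher (0.0718%), with 886 (6.36%) lower and 650 (4.67%) higher at an unadjusted p under 0.05. All 55 and all 10 had the same sign with all 8 libraries, and DESeq2 without that library also called every one of them. Both fits reuse the libraries that gave the calls, so this agreement is no separate support. DESeq2 with all 8 libraries called 17 of the 55 and 6 of the 10. The log2 fold changes of the 55 genes lay between -0.28 and -1.17, with a median size of 0.45.

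The 10 genes with the smallest p-values on the lower side included regulators of transcription, immediate early genes and noncoding RNAs. ID1, an inhibitor of the DNA binding of basic helix-loop-helix factors (chr20:31605283-31606515), stood at 31.0, 35.2 and 35.1 CPM in untreated s4U replicates 1 to 3 and at 53.3 CPM without s4U. In emetine-treated cells it stood at 56.0, 56.9 and 46.1 CPM with s4U and at 100.0 CPM without. All 6 s4U libraries thus lay below the library without s4U of their own state, and the log2 fold change was -0.79 ± 0.11 (SE, adjusted p = 0.145 by edgeR) with all libraries and -0.74 ± 0.07 (adjusted p = 6.53e-05) without emetine s4U replicate 3. PPP1R10, a nuclear regulatory subunit of protein phosphatase 1, read 77.1, 84.5 and 69.0 CPM against 131 CPM in untreated cells and 99.6, 103 and 99.3 CPM against 148 CPM in emetine-treated cells. Its log2 fold change was -0.66 ± 0.09 (edgeR adjusted p = 0.145), and -0.65 ± 0.07 (adjusted p = 0.000372) without that library. HNRNPU-AS1, a noncoding transcript whose symbol RefSeq now lists under HNRNPU, read 52.1 to 55.0 CPM against 93.1 CPM in untreated cells and 50.4, 49.0 and 43.5 CPM against 71.5 CPM in emetine-treated cells. Its log2 fold change was -0.70 ± 0.09 (edgeR adjusted p = 0.145), and -0.67 ± 0.07 (adjusted p = 8.9e-05) without emetine s4U replicate 3. Its reads cannot be separated with certainty from those of HNRNPU, which lay at 1111 CPM or more in the untreated s4U libraries and at 1096 CPM without s4U.

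SNHG12, a host transcript of small nucleolar RNAs, was at 12.4, 9.17 and 8.96 CPM with s4U against 23.0 CPM in untreated cells, and at 25.2, 21.0 and 12.7 CPM against 42.4 CPM in emetine-treated cells. Its log2 fold change was -1.14 ± 0.21 (edgeR adjusted p = 0.455) with all libraries and -1.02 ± 0.12 (adjusted p = 0.0011) without emetine s4U replicate 3. The other genes among the 10 with the smallest p were IER5L (-1.18), C10orf10 (now DEPP1, -0.73), IER2 (-0.56), LINC01355 (-1.24), ZNF250 (-0.75) and ZNF823 (-0.72), given as log2 fold changes with all libraries. None of these passed the test with 8 libraries (adjusted p between 0.274 and 0.597 by edgeR), and each passed it without emetine s4U replicate 3. In all 10 genes every s4U library lay below the library without s4U of its state, which was so in 10.1% of all genes tested. The 10 were picked by p in these same libraries, so this separation largely follows from the choice.

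**Figure D1:**
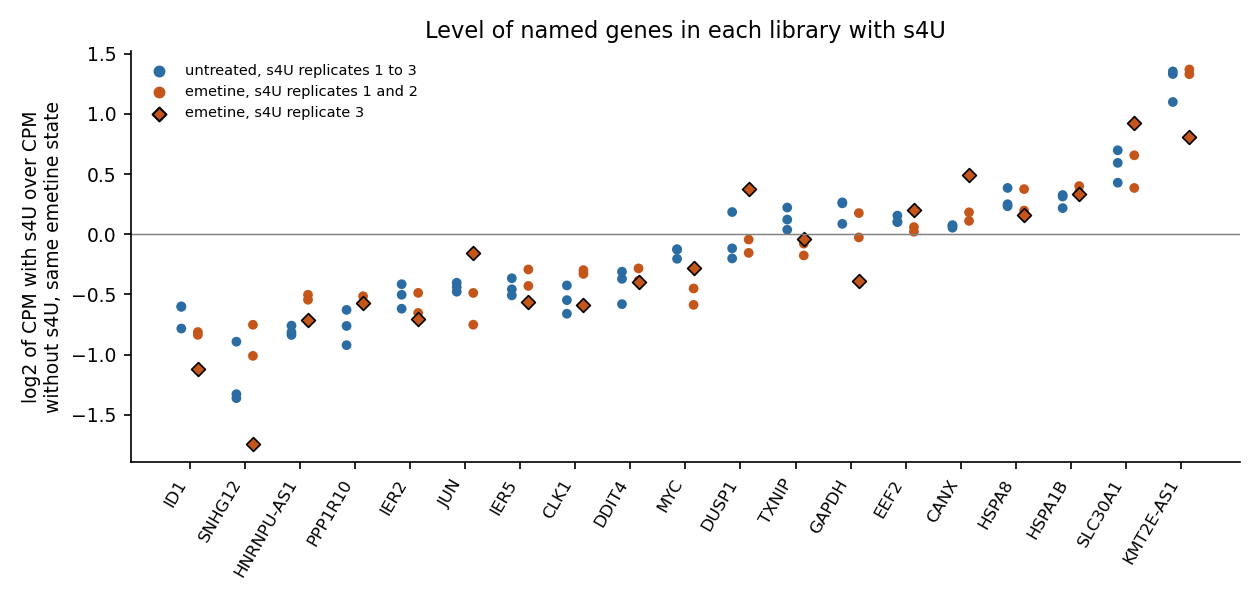
Level of named genes in each s4U library. The y axis is the log2 of CPM with s4U over CPM in the single library without s4U of the same emetine state, and each point is 1 of the 6 s4U libraries (blue untreated, orange emetine, diamonds emetine s4U replicate 3). All 6 points lie below 0 from ID1 to MYC and above 0 for EEF2, CANX, HSPA1B, HSPA8, SLC30A1 and KMT2E-AS1, while those of DUSP1, TXNIP and GAPDH fall on both sides.

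On the higher side, the 10 genes with the smallest p had few reads, at mean levels between 0.625 and 14.7 CPM, and 4 of them are annotated as long noncoding RNAs. KMT2E-AS1, an RNA antisense to KMT2E, read 10.2, 10.0 and 8.54 CPM with s4U against 3.99 CPM in untreated cells and 9.96, 10.2 and 6.95 CPM against 3.96 CPM in emetine-treated cells. Its log2 fold change was 1.23 ± 0.19 (edgeR adjusted p = 0.214), and 1.31 ± 0.14 (adjusted p = 0.000173) without emetine s4U replicate 3. Because the strand setting of the counting is not given in the sources used here, its reads cannot be told apart from those of its sense partner. The same holds for PYCARD-AS1 and SLC25A21-AS1. PYCARD-AS1 read 1.63 to 3.16 CPM against 0.339 CPM in untreated cells and 1.43 to 4.34 CPM against 0.724 CPM in emetine-treated cells. SLC30A1, a zinc exporter, was the most abundant of the 10, at 13.3 CPM or more against 9.88 CPM in untreated cells and 17.3, 14.3 and 20.8 CPM against 11.0 CPM in emetine-treated cells. The remaining genes of the 10 were GLUD1P3 (log2 fold change 1.73), named as a copy of GLUD1 with which it can share reads,, TMPPE (1.25), LOC101928445 (2.03), SLC25A21-AS1 (0.77), ALG10 (0.54), C1orf106 (1.09) and LOC100272217 (1.15). Adjusted p-values of these 10 lay between 0.214 and 0.803 by edgeR with all libraries. All 6 s4U libraries lay above the library without s4U in each of the 10 genes, which was so in 8.17% of all genes tested. Here too the separation largely follows from picking genes by p.

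Immediate early genes, which are transcribed within minutes of a signal and make short-lived mRNAs, were mostly below the control. Of 30 members, 28 were tested and 21 had a negative log2 fold change, with a median log2 fold change of -0.30 against -0.01 over all genes. 0 passed the test with all libraries, 11 were lower at an unadjusted p under 0.05 (3.52% of all genes were), and 5 were lower by the adjusted test without emetine s4U replicate 3 (0.395% of all genes): JUN, JUNB, IER2, IER5 and KLF6. JUN, a subunit of the AP-1 transcription factor (chr1:58776845-58784048), read 118, 122 and 125 CPM with s4U against 165 CPM in untreated cells, and 1009, 840.0 and 1273 CPM against 1414 CPM in emetine-treated cells. Its log2 fold change was -0.44 ± 0.14 (edgeR adjusted p = 0.902) with all libraries and -0.52 ± 0.07 (adjusted p = 0.0016) without emetine s4U replicate 3. All 6 s4U libraries lay below their control. MYC, a growth-promoting transcription factor, lay at 184 to 194 CPM against 212 CPM in untreated cells and at 321 to 396 CPM against 482 CPM in emetine-treated cells, with a log2 fold change of -0.30 ± 0.10 (edgeR adjusted p = 0.902). With IER2, CTGF (-0.52) and IER5 (-0.43) had the smallest p of the list.

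Not every strongly labeled gene lay below its control. DUSP1, a phosphatase of MAP kinases, was labeled at 9.92 percentage points. It read 35.5, 37.7 and 46.4 CPM against 40.9 CPM in untreated cells and 204, 220.5 and 294 CPM against 227 CPM in emetine-treated cells, with a log2 fold change of 0.02 ± 0.15 (SE). TXNIP, an inhibitor of thioredoxin, was labeled at 9.75 percentage points and read 26.2 to 29.8 CPM against 25.5 CPM in untreated cells and 108 to 119 CPM against 123 CPM in emetine-treated cells (0.01 ± 0.09). EGR1, a zinc finger transcription factor, had few reads (1.69 to 11.4 CPM over all libraries) and a log2 fold change of -0.02 ± 0.28. For DUSP1 and EGR1 the s4U libraries lay on both sides of the control in each state. For TXNIP all 3 lay above the control in untreated cells and all 3 below it in emetine-treated cells.

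Several other groups had mostly negative log2 fold changes. Of the 13 host genes of small nucleolar RNAs, all tested, 12 had a negative log2 fold change (median -0.32), 6 were lower at an unadjusted p under 0.05 (3.52% of all genes were), and SNHG12 was called lower without emetine s4U replicate 3 (0.395% of all genes). GAS5 (-0.52 ± 0.17) and SNHG6 (-0.42 ± 0.17) followed it. Among 18 SR proteins, CLK kinases and L-type cyclins, which act in splicing and its control, 15 were negative, CLK1, CCNL1 and CLK4 were lower at an unadjusted p under 0.05 (3 of 18, against 3.52% of all genes), and CLK1 was called without that library (0.395% of all genes). CLK1 read 27.5, 29.8 and 32.4 CPM against 43.5 CPM in untreated cells and 44.8, 45.7 and 37.3 CPM against 56.3 CPM in emetine-treated cells. Of 430 tested ZNF genes, 298 were negative (median -0.10), 59 were lower and 2 higher at an unadjusted p under 0.05 (3.52% and 1.23% of all genes), and 5 were lower by the adjusted test without emetine s4U replicate 3 (0.395% of all genes). The most abundant of those 5, ZNF703, read 425, 401 and 477 CPM against 580.5 CPM in untreated cells and 702, 649 and 583 CPM against 841 CPM in emetine-treated cells. ZNF547 (-0.93), of low level, had the largest change of the 3 ZNF genes with the smallest p. Replication-dependent histone genes, whose mRNAs mostly lack the poly(A) tail used for selection, had a median of -0.27 over 25 tested members of 50, with HIST1H2AH, HIST3H2A and HIST1H2BD lower at an unadjusted p under 0.05 (3 of 25, against 3.52% of all genes) and 0 called with or without that library. The long noncoding RNAs did not share this direction: of 9 tested, 4 were negative and 5 positive (median 0.04). PVT1 (-0.77 ± 0.17) was called lower without that library, MIAT was above its control in all 6 s4U libraries at a mean of 0.802 CPM without passing the test, and MALAT1 read 24.7 to 41.9 CPM with s4U and 31.7 and 27.2 CPM without, with overlapping groups.

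The heat shock genes were the list with the most members above the control at an unadjusted p. Of 18 tested, 13 had a positive log2 fold change (median 0.07), 0 were lower and 3 higher at an unadjusted p under 0.05 (1.23% of all genes were), and 1 was higher by the adjusted test without emetine s4U replicate 3 (0.0718% of all genes). HSPA1B, an inducible HSP70 chaperone (chr6:31827738-31830254), read 673, 719 and 725 CPM against 579 CPM in untreated cells and 426, 442 and 422 CPM against 335 CPM in emetine-treated cells. Its log2 fold change was 0.32 ± 0.09 (edgeR adjusted p = 0.803), and 0.33 ± 0.06 (adjusted p = 0.0116) without that library. HSPA1A encodes the same protein and shares most of its sequence, so the split of reads between the pair is uncertain. HSPA8, the constitutive member, read 2653, 2914 and 2623 CPM against 2232 CPM in untreated cells and 1476, 1670.5 and 1438 CPM against 1288 CPM in emetine-treated cells (0.27 ± 0.11). All 6 s4U libraries lay above the control for each of these 3 genes.

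Stress pathways other than heat shock gave no gene higher at an unadjusted p under 0.05. Of the integrated stress response genes, 19 were tested, with 4 lower and 0 higher at an unadjusted p under 0.05 (3.52% and 1.23% of all genes). DDIT4, an inhibitor of mTORC1 signaling, was the member called lower without emetine s4U replicate 3, at 24.3, 28.1 and 29.3 CPM against 36.4 CPM in untreated cells and 45.4, 48.7 and 45.1 CPM against 59.3 CPM in emetine-treated cells. CEBPB (-0.41) and PPP1R15A (-0.28) were next. ATF4, the factor that drives this response, read 847 to 863 CPM with s4U against 808 CPM in untreated cells. In emetine-treated cells it read 723 to 989 CPM against 1014 CPM, so the 2 states differed in direction. Among 25 p53 targets, GADD45A and BBC3 were lower and 0 higher at an unadjusted p under 0.05 (2 of 25, against 3.52% and 1.23% of all genes). GADD45A was called lower without emetine s4U replicate 3 (edgeR adjusted p = 0.0436). CDKN1A, the p21 inhibitor of the cell cycle, read 18.4 to 19.7 CPM against 23.2 CPM in untreated cells and 15.5 to 18.8 CPM against 19.3 CPM in emetine-treated cells, with a log2 fold change of -0.23 ± 0.11 (edgeR adjusted p = 0.902). The unfolded protein response (16 tested), NRF2 targets (18), ribosome biogenesis (36), cytosolic ribosomal proteins (79), metallothioneins (3) and interferon and double-stranded RNA sensing genes (10) had 0 members past an unadjusted p under 0.05 in either direction. The 27 genes of pyrimidine uptake, salvage and synthesis, which handle uridine and its analogs, also had 0 (median -0.01). UCK2, the kinase that phosphorylates uridine, read 230 to 252 CPM against 232 CPM in untreated cells and 199 to 235 CPM against 238 CPM in emetine-treated cells. With CDA, NT5C (-0.30 ± 0.15) and UPP1 (-0.28 ± 0.15) had the smallest p of the list. GAPDH, a glycolytic enzyme, read 4392 to 4970.4 CPM against 4137 CPM in untreated cells and 2907 to 4300 CPM against 3807 CPM in emetine-treated cells.

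**Figure D2:**
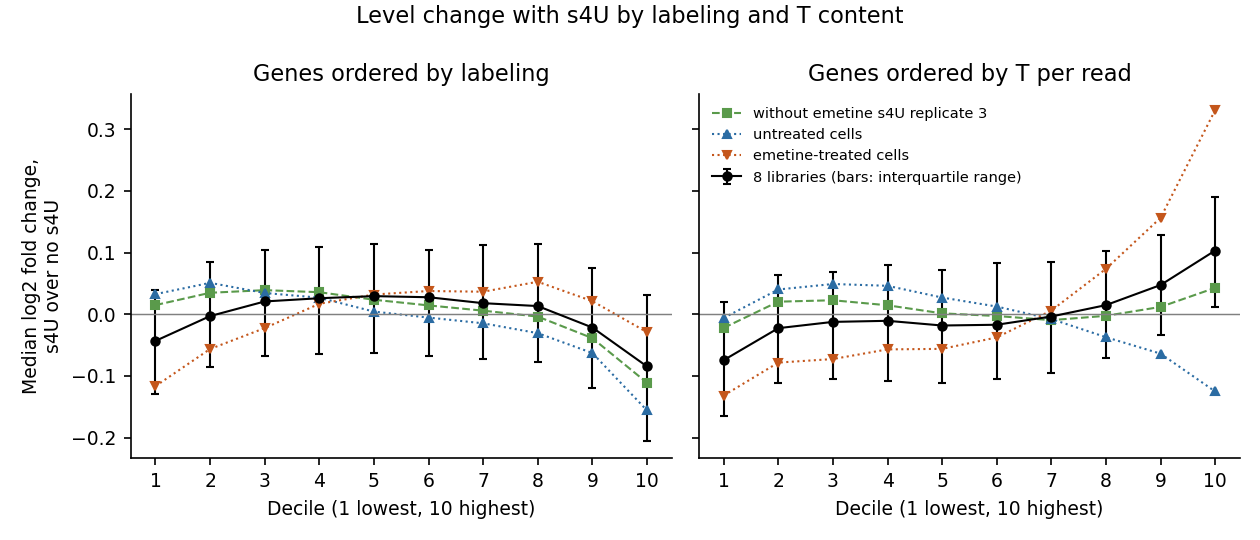
Median log2 fold change with s4U (y axis) over deciles of 10712 genes ordered by labeling (left) or by T per read (right). Black points are medians with all 8 libraries and their bars the interquartile range over genes, and colored points are medians without emetine s4U replicate 3 or within 1 emetine state. The decile with the most labeling lies below 0 in every line, whereas for the decile with the most T the untreated line ends at -0.13 and the emetine line at 0.33.

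Whether strongly labeled genes lose reads was asked by comparing deciles of genes. In the decile with the most labeling (2.83 to 10.6 percentage points, 1071 genes), the median log2 fold change was -0.08 and 69.3% of genes were negative. 164 of them were lower and 16 higher at an unadjusted p under 0.05 (3.52% and 1.23% of all genes), and in 260 (24.3%) all 6 s4U libraries lay below their control, against 10.1% of all genes tested. The most-read genes of this decile were BRD2, JUN and ZNF703. BRD2, a reader of acetylated histones labeled at 3.63 percentage points, read 501 to 509 CPM against 499 CPM in untreated cells, slightly above the control. In emetine-treated cells it read 745 to 1053 CPM against 842 CPM, on both sides of the control. In the decile with the least labeling, led by RPS2, GNB2L1 (now RACK1) and RPS4X, the median was -0.04, with 13 genes lower and 15 higher at an unadjusted p. Deciles 3 to 8 lay slightly above 0. Without emetine s4U replicate 3 the medians of the most and the least labeled decile were -0.11 and 0.01, and in untreated cells alone -0.16 and 0.03. In emetine-treated cells alone they were -0.03 and -0.12, so that there the most labeled decile was not the lower one. These medians include emetine s4U replicate 3. Relative to the control, the most labeled less the least labeled decile was 0.43 in that library. It was -0.06 and -0.05 in the other emetine s4U libraries. Within the most labeled decile, with all libraries, the median was -0.05 between percentiles 90 and 95, -0.12 between 95 and 99, and -0.19 in the top percentile. In that percentile (108 genes, median labeling 6.96 percentage points, with 58.4% of reads carrying at least 2 conversions) 80.6% of genes were negative. Of the 55 genes called lower without emetine s4U replicate 3, 49 had enough reads to be placed and 42 of these were in the top decile. Of the 10 called higher, 4 could be placed and 2 were in the top decile. The rest had too few reads to be placed. Their labeling ran from 4.06 (TMPPE) to 9.19 (PYCARD-AS1) percentage points, above the lower edge of that decile. Median labeling was 5.45 percentage points over the 55 lower genes and 5.13 over the 10 higher ones, so strong labeling was common to both directions.

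**Figure D3:**
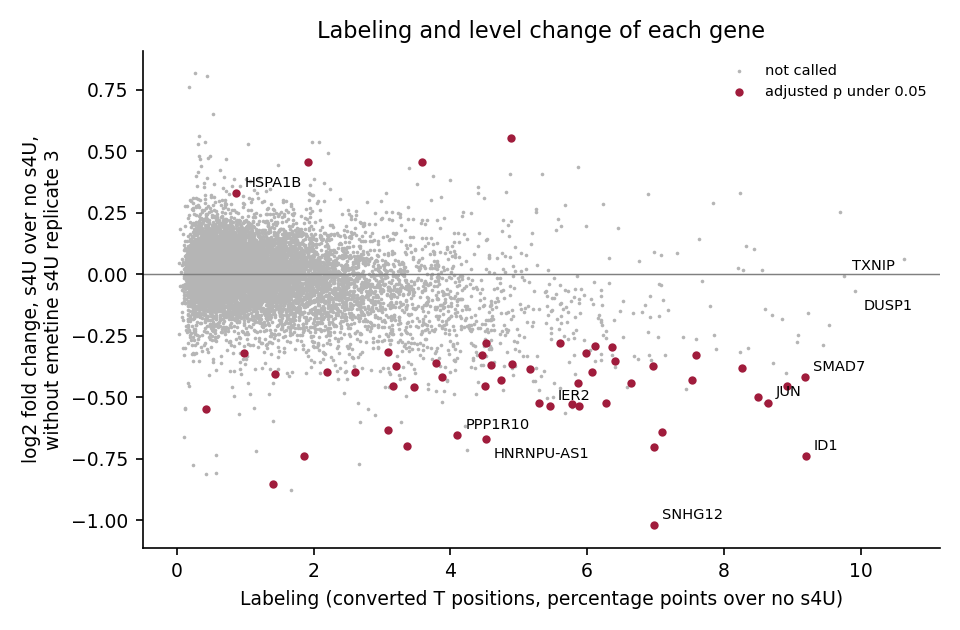
Labeling of each gene (x axis, percentage points of converted T positions over the libraries without s4U) against its log2 fold change with s4U without emetine s4U replicate 3 (y axis) for 10712 genes. Red points passed an adjusted p under 0.05, and they lie mostly below 0 and at labeling above 3, with TXNIP and DUSP1 near 0 at the right. SMAD7 was chosen after its values were seen.

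Per library, the question was put as the median log2 deviation of the most labeled decile from its emetine state, less that of the least labeled decile. In untreated cells this difference was -0.05, -0.03 and -0.06 in s4U replicates 1 to 3 and 0.14 without s4U. In emetine-treated cells it was -0.13, -0.14 and 0.36 with s4U and -0.07 without. The 3 untreated s4U libraries and emetine replicates 1 and 2 thus lay below their controls, and emetine replicate 3 lay far above. The mean with s4U minus the mean without was -0.04 (exact permutation within emetine state, two-sided, p = 0.875, n = 6 and 2, adjusted p = 0.938 over 5 such tests). The smallest p this design allows is 0.0625, so no such test could pass 0.05. Without emetine s4U replicate 3 the difference was -0.12 (exact permutation p = 0.0833, the smallest that 7 libraries allow), and after transcript length and GC content were regressed out with all libraries it was -0.13 (exact permutation p = 0.125). Both steps together, chosen after seeing the data, gave -0.15 (exact permutation p = 0.0833). Labeling and transcript length were themselves correlated over genes (Spearman 0.28, 10621 genes). Length was only taken out together with GC content, so its part alone was not tested.

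T-rich genes were, at the median, not lower with s4U over all libraries. In the decile with the most T per read (43.2 to 58.4 T), the median log2 fold change was 0.10 and 22.5% of genes were negative, and in the decile with the fewest (14.5 to 25.6 T) the median was -0.07 and 68.9% were negative. Without emetine s4U replicate 3 the medians were 0.04 and -0.02. In the most T-rich decile all 6 s4U libraries lay below their control in 13 of 1071 genes (1.21%) and above it in 68 (6.35%), against 10.1% and 8.17% of all genes tested. Its most-read genes were EEF1A1, CANX and DDX17. EEF1A1, which brings aminoacyl-tRNA to the ribosome and has many processed copies that can share its reads, read 2794, 3619 and 2499 CPM against 1884 CPM in untreated cells and 1907, 2793 and 1864 CPM against 1799 CPM in emetine-treated cells (log2 fold change 0.46 ± 0.20). CANX read 1061, 1045 and 1055 CPM against 1006 CPM in untreated cells and 948, 903 and 1176 CPM against 836 CPM in emetine-treated cells (0.17 ± 0.12). Among the most T-poor genes, EEF2, RPL8 and RPL19 had the most reads, and EEF2 lay above its control in all 6 s4U libraries (0.11 ± 0.12).

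The 2 emetine states disagreed on T-rich genes. The difference between the most and the least T-rich decile was -0.01, -0.04 and -0.04 in the untreated s4U libraries and 0.09 without s4U. In emetine-treated cells it was -0.09, -0.08 and 0.56 with s4U and -0.34 without. Every untreated s4U library was thus below its control (mean difference -0.12) and every emetine s4U library above its own (mean difference 0.47). The overall difference was 0.18 (exact permutation p = 0.5, n = 6 and 2), and without the emetine library that lacked s4U it was -0.10. T per read followed GC content over genes (Spearman -0.79, 10621 genes), so T-rich genes are also AT-rich genes. Within terciles of genes by labeling, with both states pooled, the most T-rich tercile was in no case the lowest. In the most labeled tercile the medians were -0.06, -0.02 and 0.02 from T-poor to T-rich with all libraries, and -0.04 in each without emetine s4U replicate 3. The states differed over deciles: the most T-rich and most T-poor had medians of -0.13 and -0.01 in untreated cells, and 0.33 and -0.13 in emetine-treated cells.

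**Figure D4:**
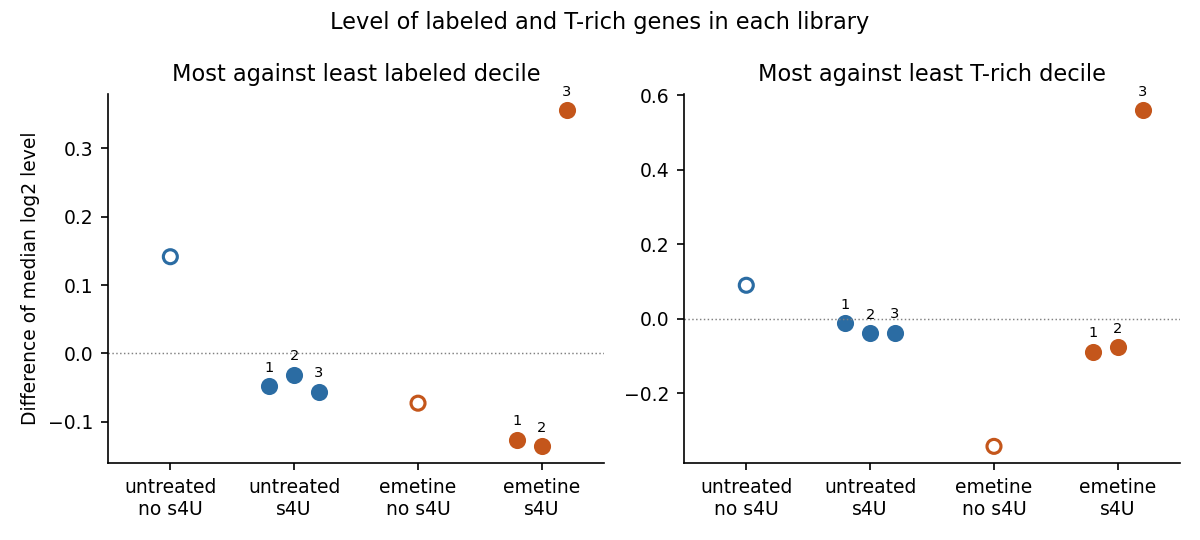
Level of the most labeled (left) and most T-rich (right) decile of genes relative to the opposite decile, as a difference of median log2 deviations from the emetine state (y axis), in each library. Open circles are libraries without s4U, filled circles s4U libraries with their replicate number. Emetine s4U replicate 3 lies highest in both panels, at 0.36 and 0.56, and the emetine library without s4U lowest in the right panel, at -0.34.

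Whether strongly labeled genes had fewer reads with many T positions was asked within genes. In the most labeled decile, T per read relative to the least labeled decile deviated by -0.14, 0.37 and -0.21 T from the state mean in the untreated s4U libraries and by -0.02 T without s4U. In emetine-treated cells the deviations were -0.15, 0.95 and -1.29 T with s4U and 0.49 T without. The s4U libraries lay on both sides of the controls in each state. The difference of -0.31 T was within this spread (exact permutation p = 0.625, n = 6 and 2). With transcript length and GC content regressed out, the difference was -0.57 T (exact permutation p = 0.188). Without emetine s4U replicate 3 it was -0.03 T. Both steps together, chosen after seeing the data, gave -0.43 T (exact permutation p = 0.0833, the smallest that 7 libraries allow). T per read over all gene reads was 33.2 to 43.8 with s4U and 32.0 and 33.5 without, and in spike-in reads, which carry no s4U, it was 36.0 to 45.4 and 33.2 and 35.9, so that libraries differed in this measure apart from labeling.

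Whether emetine altered the response to s4U was tested as an interaction. By edgeR, 0 of 14102 genes passed in either direction (0.0% each), with 495 (3.51%) more positive and 89 (0.631%) more negative in emetine-treated cells at an unadjusted p under 0.05, and DESeq2 called 6 and 0. Without emetine s4U replicate 3, 193 of 13933 genes (1.39%) passed in the positive and 2 (0.0144%) in the negative direction, with 1027 (7.37%) and 359 (2.58%) at an unadjusted p under 0.05. The 193 genes had a median of 46.0 T per read, against 33.1 over all genes. In 167 of them the level was lowest of all 8 libraries in the emetine library without s4U. A low level in that library is part of what this test selects for, and the share over all genes was not computed. STK26, a kinase gene chosen after its values were seen, read 73.9, 73.9 and 77.6 CPM against 82.3 CPM in untreated cells and 82.8, 77.8 and 99.3 CPM against 42.0 CPM in emetine-treated cells. The emetine side of this test has that 1 library without s4U. RNA18S5, the small-subunit rRNA and likewise chosen after its values were seen, was lowest in it, at 80.3 CPM against 196 to 522 CPM in the others. Whether this bears on the 193 genes was not tested. The part of this library in the 193 calls cannot be told apart from that of s4U.

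The shares of spike-in reads and of reads outside genes were compared in the same way. Spike-in reads made up 0.816%, 0.583% and 0.890% of gene and spike-in reads in the untreated s4U libraries and 0.610% without s4U, and 0.369%, 0.807% and 0.495% in the emetine s4U libraries and 0.700% without. The difference was 0.0049 percentage points (exact permutation p = 0.938, n = 6 and 2). Scaling to spike-in reads instead of to all genes moved the median log2 fold change to 0.07 and called 0 genes by edgeR. It also raised the biological coefficient of variation from 13.3% to 36.5%, so these 0 calls say little about the genes. Reads given to no gene were 17.2%, 16.6% and 17.0% of reads in the untreated s4U libraries against 16.8% without s4U, and 16.5%, 16.3% and 16.6% in emetine-treated cells against 16.05% without. That difference was 0.274 percentage points (exact permutation p = 0.25, n = 6 and 2). With mitochondrial reads left out, the share given to no gene was 10.03%, 10.2% and 10.5% against 9.94% in untreated cells, and 10.5%, 10.4% and 11.9% against 9.61% in emetine-treated cells. All 6 s4U libraries lay above both controls in this narrower share, for which no test was run. Because levels are shares of reads from bulk RNA, less RNA per cell and fewer cells that carry a transcript cannot be told apart.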

How the data were processed

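HEK-293T cells of the 1 h experiment were profiled by TL-seq in 8 libraries. The authors trimmed reads with cutadapt, aligned them to hg38 in the T-to-C mode of hisat-3n, and built with bam2bakR the deposited table of whole-number read counts per library, gene, T positions and conversions, with no normalization. Counts were summed per gene, and reads given to no gene (16.05% to 17.2%) or to several (0.976% to 1.09%) were left out. No molecular identifiers are described, so depth limits counting error only. The 2 h tables were not used. They hold the authors' own comparisons and size factors.

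Libraries were grouped by their labels. Levels were compared in edgeR 4.0.16 (TMM, quasi-likelihood, emetine as covariate, Benjamini-Hochberg adjustment) in R 4.3.3, on genes whose reads over all libraries exceeded 100. Values per library used log2 CPM with a prior count of 2 and exact permutation tests within emetine state. DESeq2 1.42.0, other scalings and filters, removal of length and GC trends (mgcv 1.9.3), a replicate block and leaving out each library were alternatives. Symbols were matched to GENCODE 44 (17147 of 19222 directly, 1135 by an older symbol). Scripts ran in Python 3.11.15 and were tested on simulated data. Genes named are the 10 with the smallest p in each direction, whether or not they passed, those past the test with the largest change and at least 5 CPM (none), up to 3 members of each list with the smallest p, genes fixed by name, and the 3 with the most reads in each extreme decile. Genes outside this rule are those in the sequences, members of a count of 5 or fewer and those said to be chosen after their values were seen. Libraries, lists and tests were chosen with earlier results of these data known.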

Additional observations from a re-analysis of the deposited data

Results flagged for a closer look

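Emetine s4U replicate 3 lay apart from the other 5 s4U libraries by Dixon's criterion in 5 of 16 measures examined, a criterion that chance meets in about 1 of 20 groups. These were the level of the most labeled decile (0.36), the level of the most T-rich decile (0.56), the SD of its deviation from the emetine state (0.31), the share of reads outside genes and mitochondria (11.9% of reads) and the share given to several genes (0.976%).

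The level of T-rich genes moved in opposite directions in the 2 emetine states: all 3 s4U libraries were below the control in untreated cells (mean difference -0.12) and all 3 above it in emetine-treated cells (mean difference 0.47). This difference was not tested.

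Reads outside the gene counts carried s4U signal above the libraries without s4U. In reads given to no gene and not mitochondrial, converted T positions were 3.68% to 4.32% with s4U and 0.0392% and 0.0416% without. In mitochondrial reads they were 2.08% to 2.27% with s4U and 0.0668% and 0.0697% without.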

How the results depend on the processing

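The count of genes changed by s4U depended on the libraries and the test. Of the scalings, filters and blocks tried, library size, RLE, spike-in scaling, no count filter, filterByExpr and the replicate block (with or without length and GC) kept 0 calls. Spike-in scaling did so at a biological coefficient of variation of 36.5%. DESeq2 gave 7 higher and 18 lower, replicate 1 libraries alone 3 and 9, and removal of length and GC trends 1 and 2. Leaving out each library in turn gave 0 to 10 higher and 0 to 55 lower, and only the omission of emetine s4U replicate 3 gave any. Alternatives chosen after seeing the data, all without that library, gave 20 and 65 (length and GC removed) and 19 and 98 (DESeq2). The interaction gave 6 and 0 by DESeq2 and 0 with the block, and 0 to 193 more positive and 0 to 2 more negative genes on leaving out each s4U library. The cause was not tested.

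The replicate numbers did not pair the libraries (same-number correlations 0.07, -0.02 and -0.18), and the block left the counts with all 8 libraries at 0, and with length and GC removed it took them from 1 higher and 2 lower to 0.

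The difference for strongly labeled genes turned to 0.0119 with at least 500 reads per library and ranged from -0.163 to 0.0874 on leaving out each library, being positive without the untreated library that lacked s4U. That for T-rich genes ranged from -0.10 to 0.41, being negative without the emetine library that lacked s4U. T per read within strongly labeled genes turned to 0.0369 T with the other measure of labeling and ranged from -0.567 to 0.0186 T. The spike-in share turned to -0.0626 percentage points with replicate 1 libraries only, the replicate block of these values, and ranged from -0.0411 to 0.0630, and the share given to no gene ranged from -0.102 to 0.650.

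Of 52 named genes followed through all settings, DUSP1, EGR1 and TXNIP changed sign, all near 0. The other named genes were not followed in this way, and some of them changed sign too. Without emetine s4U replicate 3, ATF4 moved from -0.07 to 0.0008 and UCK2 from -0.04 to 0.0041. There BRD2 moved from 0.02 to -0.06 and MALAT1 from 0.04 to -0.09. GAPDH moved from 0.07 to -0.06 in emetine-treated cells only. DUSP1 turned to -0.0677 with DESeq2 and to -0.0680 with length and GC removed, each without emetine s4U replicate 3, to -0.17 with replicate 1 libraries only, to -0.18 with the replicate block, to -0.15 with the block and length and GC removed and to -0.0372 in untreated cells only, and ranged from -0.0676 to 0.0752 on leaving out each library. EGR1 turned to 0.0043 with DESeq2, 0.0389 with the block, 0.0217 with the block and length and GC removed, 0.12 with spike-in scaling and 0.24 in untreated cells only, and ranged from -0.20 to 0.25. TXNIP turned to -0.0060 with DESeq2 without emetine s4U replicate 3, -0.10 in emetine-treated cells only, -0.0675 with the block and length and GC removed, -0.0759 with replicate 1 libraries only and -0.0769 with the block, and ranged from -0.10 to 0.13. The interaction could not be fitted without either library that lacked s4U.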
